A study of Mus musculus with 141 samples.

Results

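RNA-seq libraries of subcutaneous (inguinal) white adipose tissue from inbred mouse strains were divided by their level of Mest, a gene whose expression in adipose tissue is known to mark the expansion of fat mass, and the libraries with the most Mest were compared with those with the least. The series holds 1 library per sex and strain, from 82 strains of the Hybrid Mouse Diversity Panel, counting those of libraries left out below. The panel joins classical inbred strains with recombinant inbred strains of the BXD, AXB/BXA, BXH and CXB families. The label of 1 BXD strain, BXD24/TyJ-Cep290<rd16>/J, also names an allele of the gene Cep290. Per the study's methods, all mice ate chow until 8 weeks of age and then a high-fat, high-sucrose diet for 8 weeks, and were fasted for 4 h before collection. There was no chow-fed group and no treatment, so the groups compared here differ in a measured level and not in anything done to the mice. Libraries were selected on the measured level of Mest, in TPM (transcript abundance scaled for gene length and depth), ranked within females (65 libraries) and within males (73 libraries), with 3 further libraries left out by the rule (the female BXD34/TyJ and BXD69/RwwJ libraries and the male NZW/LacJ library). The highest 1 in 4 of each sex formed the high-Mest group of 34 libraries (16 female, 18 male), the lowest 1 in 4 formed the low-Mest group of 34 (16 female, 18 male), and 70 libraries lay between them. The female of the strain labelled with the Cep290 allele was in the high-Mest group, and the male lay between the groups. Each library is a different mouse and, within a sex, a different strain, so the spread within a group is a spread over strains. The labels name no batch, and strain was not a fixed term because most strains had 1 library in the comparison.

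Mest (also called Peg1) is an imprinted gene, transcribed from the copy inherited from the father. It encodes a protein of the endoplasmic reticulum with an alpha/beta-hydrolase fold. In white adipose tissue its transcript is known to be low in lean mice and to climb when adipocytes enlarge under positive energy balance, with large differences even among genetically identical mice. An intron of the gene carries the microRNA gene Mir335.

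The sequences of the locus are given because the whole comparison rests on this gene. Mest lies on chromosome 6 of GRCm38 at chr6:30723547-30748465 on the plus strand. The window around one of its 3 RefSeq start sites (chr6:30737800-30738099, GRCm38.p6, plus strand, 250 bases before to 50 bases after the start) is printed with its CpG dinucleotides in capitals, since methylation of CpG sites is how the silent maternal copy is marked. It holds 17 CpG dinucleotides against a median of 7 over the 32851 RefSeq windows of the same length, of which 31.4% hold at least as many. The 2 mature microRNAs of the intronic Mir335 hairpin, which overlaps 0 annotated exons of Mest, are printed with the seed (bases 2 to 8) in capitals, because they are made from the same primary transcript (chr6:30741314-30741336 and chr6:30741354-30741375, plus strand). The libraries measured poly(A) RNA and give no level of either microRNA.
Mest promoter: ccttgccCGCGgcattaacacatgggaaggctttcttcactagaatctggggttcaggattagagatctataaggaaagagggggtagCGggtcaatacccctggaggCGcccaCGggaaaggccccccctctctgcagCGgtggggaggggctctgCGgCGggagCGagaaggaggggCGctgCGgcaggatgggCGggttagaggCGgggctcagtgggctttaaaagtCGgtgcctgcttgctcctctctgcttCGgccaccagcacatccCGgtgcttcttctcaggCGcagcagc
mmu-miR-335-5p: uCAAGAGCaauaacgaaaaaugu
mmu-miR-335-3p: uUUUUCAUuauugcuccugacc

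The level of Mest, which chose the libraries and is therefore described without a test, spanned about 3 orders of magnitude. In females it ran from 1.74 to 44.6 TPM (median 11.3) in the low-Mest group and from 377 to 1315 TPM (median 548) in the high-Mest group, a ratio of medians of 48.6. In males it ran from 4.62 to 173 TPM (median 97.6) in the low-Mest group and from 685 to 1924 TPM (median 892) in the high-Mest group, a ratio of 9.14. The male low-Mest group thus reached higher than the female low-Mest group, and the contrast was wider in females. The lowest value rested on 75 estimated counts (the female SJL/J library) and the highest on 89512 (the male BXD60/RwwJ library), so counting error was small beside the range. At the borders the female BXD45/RwwJ library (44.6 TPM) was in the low-Mest group and the female AXB12/PgnJ library (46.4 TPM) was not, while BXD21/TyJ (377 TPM) was in the high-Mest group and BXD51/RwwJ (362 TPM) was not. In males the borders lay between BXD87/RwwJ (173 TPM) and BXD74/RwwJ (217 TPM) and between BXA2/PgnJ (683 TPM) and BXD56/RwwJ (685 TPM). The upper borders therefore cut through a continuous range, as the plot of Mest by library shows.

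**Figure D1:**
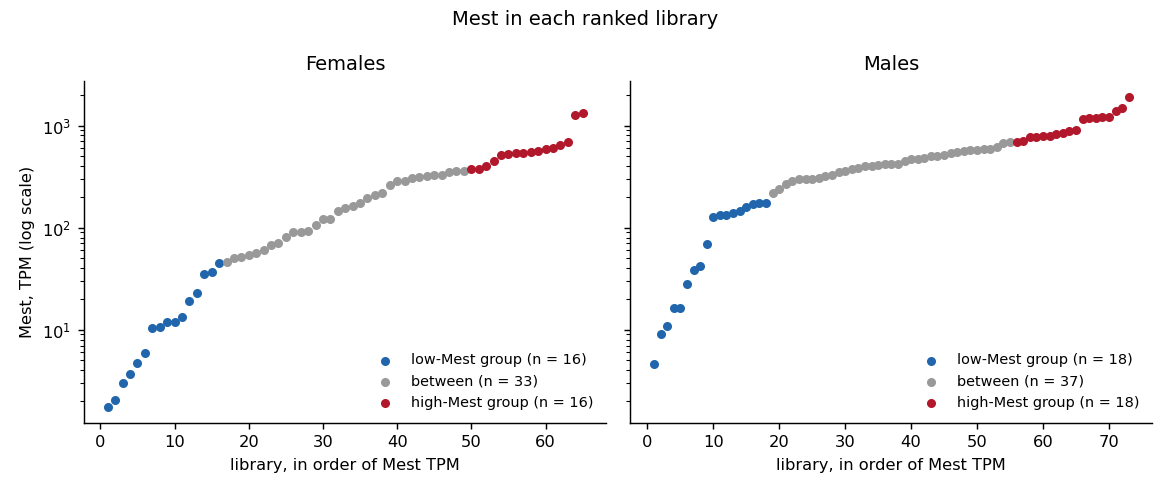
TPM of Mest (log scale) in each of the 65 female and 73 male libraries, ordered by level, with the low-Mest group in blue, the libraries between in grey and the high-Mest group in red. The female low-Mest group lies at 1.74 to 44.6 TPM and the male low-Mest group at 4.62 to 173 TPM, and the upper borders show no gap.

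Strain families were unevenly divided. BXD strains gave 18 of the 34 high-Mest libraries and 11 of the 34 low-Mest libraries, and classical inbred strains gave 10 and 14. AXB/BXA strains gave 3 and 4, BXH strains gave 3 and 0, and CXB strains gave 0 and 5. The ranked libraries held 64 of BXD, 43 of classical inbred, 20 of AXB/BXA, 5 of BXH and 6 of CXB strains. Of the 14 strains with both sexes in the groups, 3 were high in both sexes (BXD60/RwwJ, BXD86/RwwJ and CBA/J) and 6 were low in both, among them SJL/J, SWR/J and BALB/cJ. The other 5 were in opposite groups. The MA/MyJ female had 11.8 TPM and the MA/MyJ male 1474 TPM, the C57BL/6J female 35.4 TPM and the male 880.6 TPM, and the BXD55/RwwJ female 19.3 TPM and the male 823 TPM. In the opposite sense, I/LnJ had 545 TPM in the female and 169 TPM in the male, and BXD43/RwwJ had 377 and 159 TPM. Over the 58 strains with both sexes ranked, log2 TPM of Mest correlated between the sexes with Pearson's r = 0.391 (permutation p = 0.00243, adjusted p = 0.0121) and Spearman's rho = 0.349 (permutation p = 0.00757, adjusted p = 0.0179), adjusted over 10 such values. Without the 2 strains farthest from the median female value r was 0.345 (permutation p = 0.00893). Within the 26 BXD strains r was 0.273 (permutation p = 0.177), and within the 32 others it was 0.419 (permutation p = 0.0162).

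Several features of the libraries moved with the Mest level and touch the results that follow. Total estimated counts lay between 20568201 and 78562648 (the latter in the male CXB11/HiAJ library) and did not differ between the groups beyond their spread (mean difference within sex 1155730, permutation p = 0.569). The share of counts on mitochondrially encoded genes was 7.66% ± 1.91 (SD, n = 34) in the high-Mest group and 12.2% ± 4.43 (SD, n = 34) in the low-Mest group, lower in 32 of 34 high-Mest libraries than the low-Mest median of their sex (two-sided permutation p = 1e-05, the smallest that 100000 resamples give; adjusted p = 2e-05). The summed level of 14 lymphocyte markers (Cd3e, Cd4, Ccr7 and others) fell into separate ranges, with 36 of the 68 libraries at or below 52 CPM (counts scaled to the library size) and 32 at or above 279 CPM. The 32 libraries comprised 24 of the 34 in the low-Mest group and 8 of the 34 in the high-Mest group, and the inguinal depot holds a lymph node. The 9 mammary epithelium markers summed to 208 to 2057 CPM in females of the low-Mest group and 80.4 to 1710 CPM in females of the high-Mest group. In males the same sum reached 319 CPM in the low-Mest group, in the PL/J library, and 19.5 CPM in the high-Mest group. The 11 genes of the liver (Alb, Hpx, Fga and others), a list chosen after their values were seen, summed to 500 CPM or more in 6 of 34 high-Mest libraries and in 0 of 34 low-Mest libraries. Between the groups the male AXB5/PgnJ (3590 CPM), female BXD66/RwwJ (744 CPM) and male BXA8/PgnJ (553 CPM) libraries also passed that level. The low-Mest and high-Mest medians of this sum were 28.7 and 58.7 CPM in females and 35.1 and 38.7 CPM in males. The adipocyte markers Adipoq, Plin1, Plin4, Cidec and Fabp4 summed to at least 4755 CPM in every library of the groups, with low-Mest and high-Mest medians of 12886 and 22112 CPM in females and 22987 and 25324 CPM in males. In a whole tissue, fewer cells of a type and less RNA per cell cannot be told apart, and the part of these shifts in the results was not tested except by the fits named beside each result.

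**Figure D2:**
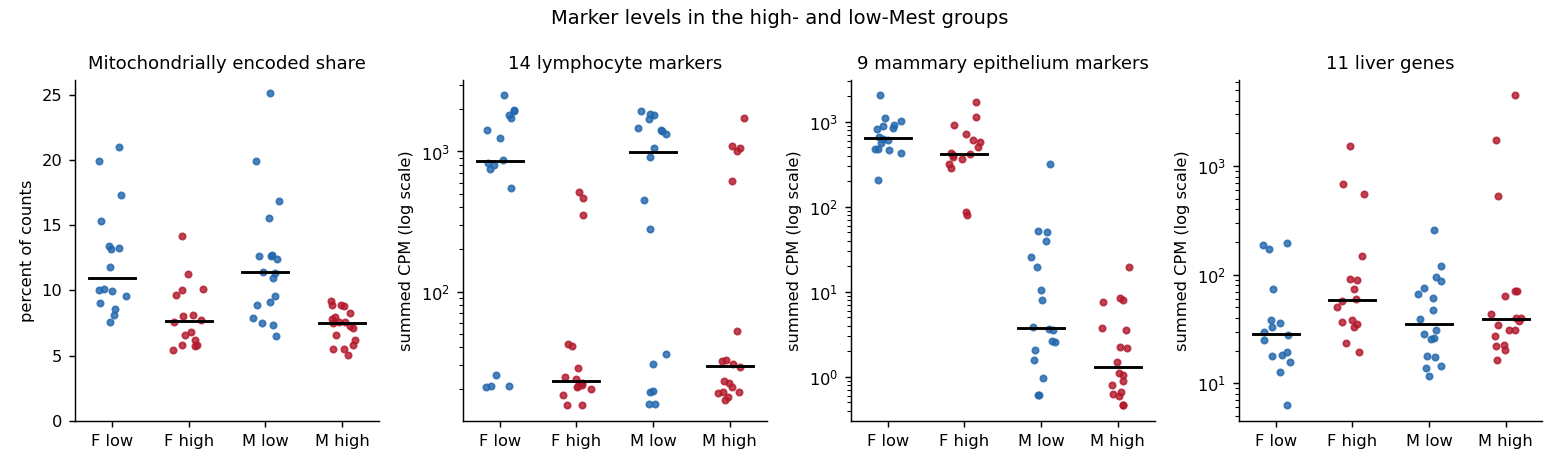
Share of counts on mitochondrially encoded genes (percent) and summed CPM (log scale) of the lymphocyte markers, the mammary epithelium markers and the liver genes in each library, by sex (F, M) and Mest group (low, high), with bars at the medians. The mitochondrial share was lower in 32 of 34 high-Mest libraries than the low-Mest median of their sex, and 24 of 34 low-Mest against 8 of 34 high-Mest libraries had 279 CPM or more of the lymphocyte markers.

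Across the other genes the contrast was broad. Of 17568 genes tested besides Mest, 4355 (24.8%) were higher and 5459 (31.1%) lower in the high-Mest group at an adjusted p under 0.05, by edgeR's quasi-likelihood test with sex as a term and p-values adjusted over all genes by the method of Benjamini and Hochberg. The median log2 fold change of all genes was -0.05. On the log2(TPM + 1) scale with limma the median moved to 0.12 and the calls split into 7237 higher and 1693 lower, 81% higher in place of 44.4%, so a change close to 0 has no fixed direction and each list below is read beside the median of all genes. In the 36 libraries under the lymphocyte-marker limit of 100 CPM (26 high-Mest, 10 low-Mest) 1677 genes (9.39%) were higher and 2022 (11.3%) lower, of 17859. That fit had no strain term. Its 10 low-Mest libraries held both sexes of CXB11/HiAJ and AXB13/PgnJ, and its 26 high-Mest libraries both sexes of BXD60/RwwJ, BXD86/RwwJ and CBA/J. The mitochondrially encoded share was 15.3% in the CXB11/HiAJ female and 25.1% in the male. With the levels of mammary, lymphocyte and skeletal muscle markers as terms, 1809 genes (10.3%) were higher and 1882 (10.7%) lower. The counts of each list below are to be read beside the shares of all genes in the same fit. Those on the log2(TPM + 1) scale stand beside 7237 higher and 1693 lower of 17568.

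Each sex was also fitted alone. In females 3976 genes (24.1%) were higher and 3907 (23.7%) lower, of 16474, and in males 2075 (12.9%) were higher and 2317 (14.4%) lower, of 16128. Among the 15914 genes tested in both, 1641 were higher in both sexes, 41.4% of the female list and 80.2% of the male list, and 1351 were lower in both, 35.5% and 58.5%. The sexes were different animals that partly shared strains and were ranked by the same gene.

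The 70 libraries between the groups, which the groups did not use, gave a test in mice outside the extremes. Along log2 TPM of Mest, 1432 of 16754 genes (8.55%) were higher and 1298 (7.75%) lower. Of the 1432, 1356 (94.7%) were also higher in the high-Mest group, and of the 1298, 1137 (87.6%) were also lower.

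A further test placed strains by the Mest level of their female library and compared their males, and the reverse, with 14 strains in each group. In the males, median Mest was 336 TPM in strains low in the female and 528 TPM in strains high in the female, a log2 difference of 0.57 ± 0.57 (edgeR's quasi-likelihood test, adjusted p = 0.827). In the females, the medians were 59 and 304 TPM, a log2 difference of 1.54 ± 0.74 (edgeR's quasi-likelihood test, adjusted p = 0.969, unadjusted p = 0.0482). No gene was called by edgeR's quasi-likelihood test in either sex: 0 of 15953 (0%) in males, with 1290 at an unadjusted p under 0.05, and 0 of 16711 (0%) in females, with 853.

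The 6 genes known from earlier work to change with Mest during fat mass expansion were examined first: Sfrp5, a secreted inhibitor of Wnt signalling; Lep, the hormone leptin; Npr3, the clearance receptor for natriuretic peptides; Bmp3, a secreted factor of the TGF-beta superfamily; and Cav1 and Cavin1, coat proteins of the caveolae of the adipocyte surface. All 6 were higher in the high-Mest group (6 of 6, against 24.8% of all genes), with a median log2 fold change of 1.46. In the lymphocyte-poor libraries 5 of 6 were higher, with a median of 0.86, and in the libraries between the groups 6 of 6.

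Sfrp5 in females was measured at 0.918 to 32.7 CPM (median 5.13) in the low-Mest group and 49.98 to 403 CPM (median 158) in the high-Mest group. Every female of the high-Mest group lay above every female of the low-Mest group. The male range was 3.43 to 304 CPM (median 57.4) in the low-Mest group and 58.4 to 479 CPM (median 154) in the high-Mest group, and 3 of 18 high-Mest libraries lay above all low-Mest libraries. Over both sexes the log2 fold change was 2.49 ± 0.41 (adjusted p = 1.17e-06), 4.21 in females and 1.01 in males (adjusted p = 0.0651), and the difference between the sexes was -3.17 ± 0.62 (adjusted p = 0.00748).

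Lep in females was at 18.03 to 2568 CPM (median 160.4) in the low-Mest group and 1079 to 5698 CPM (median 2555) in the high-Mest group. Among males the level was 40.4 to 3409.5 CPM (median 787) in the low-Mest group and 1066 to 5358 CPM (median 3022) in the high-Mest group. The groups overlapped in both sexes, with 34 of 34 high-Mest libraries above the low-Mest median of their sex and 16 of 34 above every low-Mest library of their sex. The difference was 4.77-fold (log2 fold change 2.25 ± 0.33, adjusted p = 1.14e-07). The window around the Lep start site is printed because CCAAT/enhancer-binding proteins are known to act there in adipocytes (chr6:29059971-29060270, GRCm38.p6, plus strand, 250 bases before to 50 after the start). The capitals mark the only match to TTGCNNAA on either strand, beginning 55 bases before the start (position -55). Of all RefSeq windows 10.8% hold such a match, as do 1 of the 3 Mest windows and none of the windows of Sfrp5, Npr3, Cav1 and Cavin1. A match describes the letters and not a bound site.
Lep promoter: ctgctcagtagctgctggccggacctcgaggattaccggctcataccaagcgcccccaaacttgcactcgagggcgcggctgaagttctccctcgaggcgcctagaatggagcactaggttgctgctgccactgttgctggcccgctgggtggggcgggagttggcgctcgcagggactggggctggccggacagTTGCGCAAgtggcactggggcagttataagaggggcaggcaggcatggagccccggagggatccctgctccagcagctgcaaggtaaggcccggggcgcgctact

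Npr3 had female medians of 233 and 1596 CPM and male medians of 1077 and 2139 CPM in the low-Mest and high-Mest groups, 2.92-fold higher over both sexes (log2 fold change 1.55 ± 0.24, adjusted p = 3.78e-07). Bmp3 had female medians of 33.3 and 145.1 CPM and male medians of 74.7 and 133.5 CPM (log2 fold change 1.37 ± 0.20, adjusted p = 7.75e-08). For both genes the ranges overlapped, and 17 and 15 of 34 high-Mest libraries lay above every low-Mest library of their sex. The caveolar genes changed less. Cav1 had female medians of 907 and 2969 CPM and male medians of 1941 and 3831 CPM (log2 fold change 1.0 ± 0.15, adjusted p = 1.71e-07), and Cavin1 gave 0.87 ± 0.13 (adjusted p = 2.71e-07). In the lymphocyte-poor libraries the log2 fold changes were 1.26 for Lep, 1.38 for Sfrp5, 0.86 for Npr3, 0.86 for Bmp3, 0.40 for Cav1 and 0.33 for Cavin1, the last with an adjusted p of 0.0724.

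**Figure D3:**
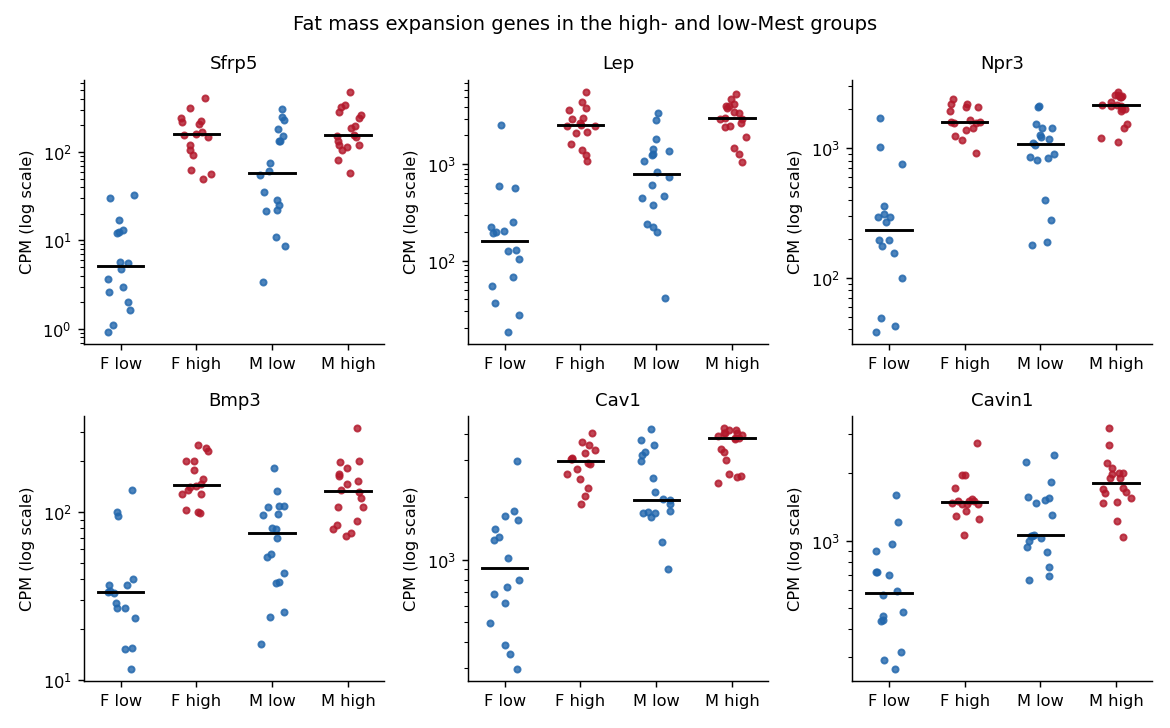
CPM (log scale) of Sfrp5, Lep, Npr3, Bmp3, Cav1 and Cavin1 in each library, by sex (F, M) and Mest group (low, high), with bars at the medians. The female groups of Sfrp5 do not overlap (0.918 to 32.7 against 50 to 403 CPM), whereas the male groups of all 6 genes do.

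Genes near Mest on chromosome 6 were read as a group of 9, of which 7 were expressed enough to test, and 4 of 7 were higher and 0 lower. Cpa5, a carboxypeptidase gene 91.8 kb from Mest, had medians of at most 0.776 CPM in any group and a log2 fold change of 3.33 ± 0.33. Its lowest libraries were at 0, where 3 counts correspond to 0.0994 CPM at the median depth.

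Klf14, a transcription factor gene 208 kb from Mest that is itself imprinted and expressed from the maternal copy, was at 0.0583 to 3.94 CPM (median 0.918) in the low-Mest group and 4.80 to 20.04 CPM (median 13.1) in the high-Mest group in females. The male range was 0.476 to 10.9 CPM (median 2.47) in the low-Mest group and 6.28 to 25.7 CPM (median 14.3) in the high-Mest group. It was 6.19-fold higher in the high-Mest group (log2 fold change 2.63 ± 0.27, adjusted p = 1.38e-11), and the same direction was called in the lymphocyte-poor libraries (2.24) and between the groups (0.58 per doubling of Mest TPM). Cep41, a centrosomal protein gene 29.8 kb away, was higher by 0.58 ± 0.07. Copg2 overlaps the end of Mest by 912 bases on the opposite strand, and the strand setting of the quantification is not given in the sources used here, so reads in the overlap could be assigned to either gene. Its log2 fold change was 0.15 ± 0.08 (adjusted p = 0.0998). That value turned on 1 library, the male PL/J of the low-Mest group at 187 CPM, without which it was 0.24 (adjusted p = 0.000148). Tsga13 (-0.01) and Mkln1 (-0.04) were not called, and both changed sign with the scaling or the libraries used.

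Ranked by Spearman's rho with Mest over the 65 female and 73 male libraries, centred within sex, the genes most like Mest among 14782 included Cdr2 (rho = 0.858), Mdfic (0.855), Prelp (0.855), Lox (0.851), Gm4912 (0.849), Hebp1 (0.846), Klf14 (0.844), Rtn3 (0.841) and Akap2 (0.837). The median rho of all genes was 0.149, and 5% of genes lay above 0.661. At the other end were Mpzl2 (-0.577), Fn3k (-0.576), Tst (-0.550), mt-Co3 (-0.547) and Sorcs2 (-0.543). These coefficients describe libraries that differ in strain and in cell content, and carry no test. Among the libraries between the groups alone, rho was 0.664 for Cdr2 and 0.514 for Klf14. Prelp, a proteoglycan of connective tissue, had female medians of 276 and 1631 CPM and male medians of 1105 and 2179 CPM. Gm4912, an unprocessed pseudogene whose reads may be shared with near-identical copies, had medians of 0.0354 and 1.84 CPM in females.

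Of 37 imprinted genes listed, 27 were tested, and 15 of 27 were higher and 0 lower, with a median log2 fold change of 0.38 against -0.05 for all genes. In the lymphocyte-poor libraries 6 were higher and 3 lower, with a median of 0.07. Females alone gave 17 higher and 1 lower, with a median of 0.52, and males alone 8 and 1, with a median of 0.05. With the adipocyte marker level as a term 8 were higher and 1 lower, with a median of -0.001. Peg3, a paternally expressed zinc-finger gene, was the clearest besides Klf14, at 38.7 to 187 CPM (median 94.9) in the low-Mest group and 124.7 to 699 CPM (median 336) in the high-Mest group in females and 14.7 to 339 CPM (median 106.8) in the low-Mest group and 196 to 935 CPM (median 324) in the high-Mest group in males (log2 fold change 1.68 ± 0.19, adjusted p = 9.55e-11). All 34 high-Mest libraries lay above the low-Mest median of their sex, and the lymphocyte-poor libraries gave 1.5. Between the groups its slope of 0.25 was not called (adjusted p = 0.124). Impact, another paternally expressed gene, differed by 0.38 ± 0.05.

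The genes with the smallest p-values moved by moderate amounts with little overlap. Mdfic, an inhibitor of MyoD-family factors, was at 42.7 to 98.2 CPM (median 54.98) in the low-Mest group and 100.6 to 171 CPM (median 132.4) in the high-Mest group in females. Among males the level was 58.6 to 137.2 CPM (median 92.5) in the low-Mest group and 99.3 to 224 CPM (median 172) in the high-Mest group. In 30 of 34 high-Mest libraries Mdfic exceeded every low-Mest library of its sex (log2 fold change 0.96 ± 0.08, adjusted p = 1.09e-14). Tsc22d2 (0.96), Fam198b (1.51), Elp3 (0.58) and Adap2 (1.46) were the other genes of this kind among those higher. Among those lower were the RNA-binding protein genes Dazap1 (-0.29) and Hnrnph3 (-0.47), the lysophosphatidylinositol acyltransferase gene Mboat7 (-0.39), Fam117a (-0.71) and Dalrd3 (-0.55). All 10 were also called, in the same direction, in the lymphocyte-poor libraries.

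Among genes with a mean of 5 CPM or more, large differences belonged to genes with low levels in most of the low-Mest group. Tph2, which encodes a tryptophan hydroxylase best known from serotonergic neurons, was at 0 to 2.09 CPM (median 0.188) in the low-Mest group and 0.273 to 141.5 CPM (median 23.2) in the high-Mest group in females. Male libraries held 0.0892 to 65.4 CPM (median 1.6) in the low-Mest group and 6.70 to 193 CPM (median 74.5) in the high-Mest group. Its levels ran widely within the high-Mest group, and 26 of 34 high-Mest libraries exceeded every low-Mest library of their sex (log2 fold change 4.79 ± 0.57, adjusted p = 4.5e-10). Other genes named for their fold under that limit, the liver genes apart, were Lipf, a lipase known from the stomach (4.25), Itgad, a leukocyte integrin subunit (4.22), Cdkl4 (3.25), Gabrr2, a GABA receptor subunit (2.98), and Folh1, a folate hydrolase (2.96). These 6 were called in the lymphocyte-poor libraries too, with log2 fold changes of 3.17, 3.13, 3.54, 2.87, 2.72 and 2.63. Between the groups the slopes of Lipf, Cdkl4, Gabrr2 and Folh1 were called, and those of Tph2 (adjusted p = 0.1) and Itgad (adjusted p = 0.139) were not.

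Of the 12 genes with the largest positive changes, 6 (Hpx, Fga, Pzp, Bhmt, Gc and Ahsg) encode plasma proteins or enzymes of the liver. Fga had medians of 0.283 and 0.272 CPM in the male groups, and its log2 fold change of 3.41 ± 0.75 went with 6 of 34 high-Mest libraries above every low-Mest library of their sex. Of the 11 liver genes, 11 were higher in the 68 libraries, 0 were called between the groups, and 1 was called in the lymphocyte-poor libraries. Without the 6 libraries that held 500 CPM or more, the log2 fold changes of Fga, Pzp, Bhmt, Gc and Ahsg were below 0 (-0.97, -1.24, -0.49, -1.36 and -1.21), and that of Hpx was 3.19 (adjusted p = 1.25e-08). Those 6 libraries were picked by the summed level of liver genes and all were high-Mest. Their removal by itself lowers such genes in that group, so the changes of sign are no separate result. Hpx, the haem-binding protein hemopexin, was at 0.150 to 5.47 CPM (median 0.634) in the low-Mest group and 0.664 to 85.5 CPM (median 9.77) in the high-Mest group in males, with 34 of 34 high-Mest libraries above the low-Mest median of their sex. The highest sum of the liver genes, 4501 CPM, was in the male MA/MyJ library, without which the log2 fold changes of Fga, Pzp, Bhmt, Gc and Ahsg were 2.64, 2.55, 2.54, 2.43 and 2.07.

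The largest negative changes fell into 2 kinds. Ighg1, Ighg2b, Ighg3 and Ighg2c, which encode immunoglobulin heavy chains, Ccr6, a lymphocyte chemokine receptor, Glycam1, a mucin of lymph node vessels and mammary gland, and Dsc3, a desmosomal cadherin, were lower, with log2 fold changes of -2.62 to -3.90. Glycam1 in females was at 0 to 879 CPM (median 322) in the low-Mest group and 0 to 159.8 CPM (median 0.157) in the high-Mest group. In the lymphocyte-poor libraries none of the 6 genes tested there was called, and those of Ighg3, Ighg2c and Glycam1 were above 0 (0.10, 1.62 and 0.32). The other kind was metabolic: Fabp3, a fatty acid-binding protein of oxidative tissues (-3.24), Ucp1, the uncoupling protein of brown and beige adipocytes (-2.88), Acot11, an acyl-CoA thioesterase induced by cold (-2.68), and Slc2a5, the fructose transporter (-2.79). Of these 4, Slc2a5 was called in the lymphocyte-poor libraries (-2.20, adjusted p = 0.0165), and Fabp3, Ucp1 and Acot11 were not (-0.54, -0.75 and -0.93, adjusted p = 0.708, 0.612 and 0.136). The last of the 12, the pseudogene Gm13340 (-2.75), rested largely on 1 library. The male NZB/BlNJ library of the low-Mest group had 1353.9 CPM and the next highest library 18.6 CPM, and without it the log2 fold change was -0.72. Leaving out 1 library also moved Fabp3 to -2.45 (without the male SJL/J library), Ighg2b to -2.71 (without the male NZB/BlNJ library) and Slc2a5 to -3.41 (without the female BXD21/TyJ library), with the call kept in each.

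Most genes of fatty acid synthesis that changed were lower in the high-Mest group. Of 23 genes of de novo lipogenesis, 12 were lower (31.1% of all genes were) and 1 higher, with a median log2 fold change of -0.35. Among the lymphocyte-poor libraries 16 were lower and 0 higher, with a median of -0.66. Between the groups 1 of the 23 was lower and 0 higher, where 7.75% of all genes were lower. The median slope of the 23 there was -0.19 per doubling of Mest TPM. Thrsp, a regulator of lipogenic enzymes that responds to diet and thyroid hormone, was at 74.9 to 1723 CPM (median 693) in the low-Mest group and 42.8 to 1024 CPM (median 166) in the high-Mest group in females. The male range was 93.1 to 1182 CPM (median 305) in the low-Mest group and 13.8 to 223 CPM (median 70.3) in the high-Mest group. The groups overlapped, yet 14 of 34 high-Mest libraries lay below every low-Mest library of their sex (log2 fold change -2.04 ± 0.28, adjusted p = 1.62e-08). The 2 acetyl-CoA carboxylase genes, whose products make malonyl-CoA, followed: Acacb differed by -1.56 ± 0.24 and Acaca by -1.40 ± 0.22. On the log2(TPM + 1) scale the list gave 9 lower and 4 higher, with a median of -0.08 against 0.12 for all genes.

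Genes of lipid import and storage showed no single direction. Of 11 genes of fatty acid uptake 7 were higher and 2 lower, and in the lymphocyte-poor libraries 1 was higher and 2 lower, with medians of 0.32 and -0.07. Vldlr, a receptor for triglyceride-rich particles, had female medians of 72.8 and 181 CPM and male medians of 127.7 and 252 CPM (log2 fold change 1.02 ± 0.12, adjusted p = 9.27e-10) and was called in the lymphocyte-poor libraries too (0.68). Cd36, the fatty acid translocase, and Angptl4, an inhibitor of lipoprotein lipase, were higher by 0.67 and 0.63 over all 68 libraries, and gave 0.21 and 0.09 in the lymphocyte-poor ones (adjusted p = 0.0934 and 0.676). Of 14 genes of triglyceride synthesis 3 were higher and 4 lower, shares near those of all genes (24.8% and 31.1%). The counts were 4 higher and 0 lower in females, 0 and 4 in males, 0 and 7 in the lymphocyte-poor libraries, and 5 and 0 on the log2(TPM + 1) scale. Mogat2 was higher (0.97 ± 0.28), and Pck1, which supplies glycerol 3-phosphate in fat, was lower (-0.53 ± 0.17), with 0.04 in females and -1.05 in males. The acyltransferase gene Agpat3 differed by -0.26.

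Of 19 genes of lipolysis and the lipid droplet 7 were higher and 5 lower, where 24.8% of all genes were higher and 31.1% lower. The counts were 10 higher and 3 lower in females, 0 and 5 in males, 0 and 7 in the lymphocyte-poor libraries, and 11 and 2 on the log2(TPM + 1) scale. Adrb3, the beta3-adrenergic receptor through which catecholamines start lipolysis in mouse fat, was at 100.99 to 480.2 CPM (median 245) in the low-Mest group and 30.7 to 219 CPM (median 160.1) in the high-Mest group in females. Among males the level was 103.1 to 732 CPM (median 302) in the low-Mest group and 15.4 to 308 CPM (median 84.9) in the high-Mest group. It was 2.66-fold lower in the high-Mest group (log2 fold change -1.41 ± 0.21, adjusted p = 1.12e-07), and 18 of 34 high-Mest libraries lay below every low-Mest library of their sex. Plin4, which coats lipid droplets, was higher by 0.74 ± 0.14, by 1.26 in females and 0.27 in males (adjusted p = 0.156). Of 20 adipogenic transcription factors 5 were higher and 5 lower, against 24.8% and 31.1% of all genes, and in the lymphocyte-poor libraries 1 was higher and 7 lower. The 3 called genes of smallest p were all higher: Zfp423 (0.87 ± 0.12), a determinant of the preadipocyte state, Gata2 (0.47) and Rxra (0.36). None of the 5 lower is named here. Of 17 insulin signalling genes 7 were higher and 4 lower. Tbc1d4, which restrains the glucose transporter GLUT4, differed by -0.39 ± 0.06 and Trib3 by 0.42 ± 0.11. On the log2(TPM + 1) scale insulin signalling gave 12 higher and 1 lower, and in the lymphocyte-poor libraries 0 higher and 3 lower.

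Secreted products other than leptin moved as well. Of 13 adipokine genes tested 7 were higher and 1 lower (24.8% and 31.1% of all genes were), with 4 and 3 in the lymphocyte-poor libraries. Sparc, a collagen-binding glycoprotein, had female medians of 1237 and 4647 CPM and male medians of 2926 and 6912 CPM (log2 fold change 1.27 ± 0.16, adjusted p = 1.24e-09), with 34 of 34 high-Mest libraries above the low-Mest median of their sex. Of 21 sterol synthesis genes 7 were higher and 2 lower. In the lymphocyte-poor libraries 2 were higher and 3 lower, near the shares of all genes there (9.39% and 11.3%). Hmgcs1 (0.93 ± 0.14) and Hsd17b7 (0.69) were among them, and the lymphocyte-poor values were 0.44 and 0.44, the value of Hmgcs1 with an adjusted p of 0.053.

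By edgeR over the 68 libraries, mitochondrial and thermogenic genes that changed were mostly lower with high Mest. The direction of nuclear genes of complex I and of fatty acid oxidation depended on the scale, as given below. All 13 mitochondrially encoded protein genes were tested, and 12 were lower and 0 higher, with a median log2 fold change of -0.69 and of -1.0 in the lymphocyte-poor libraries, where 12 were again lower. mt-Co3, a subunit of cytochrome c oxidase, was at 5918 to 24122 CPM (median 9162) in the low-Mest group and 3937 to 16903 CPM (median 6111) in the high-Mest group in females. The male range was 5587 to 38685 CPM (median 11531) in the low-Mest group and 4282 to 8456 CPM (median 6261) in the high-Mest group (log2 fold change -0.85 ± 0.14, adjusted p = 1.86e-06). mt-Atp6 (-0.85) and mt-Atp8 (-0.79) were close to it. The list kept 11 lower and 0 higher on the log2(TPM + 1) scale. Because these genes make up the mitochondrial share of a library, they move with the 7.66% against 12.2% given above and are not separate evidence of it.

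Nuclear genes of respiratory complex I gave 20 lower and 0 higher of 36, with a median of -0.23. Among the lymphocyte-poor libraries 34 of 36 were lower, with a median of -0.50, whereas on the log2(TPM + 1) scale 10 were higher and 2 lower, with a median of 0.04 against 0.12 for all genes. Ndufs7 differed by -0.44 ± 0.09, Ndufa6 by -0.36 ± 0.08 and Ndufs8 by -0.36 ± 0.08. Of 21 fatty acid oxidation genes 10 were lower and 1 higher over all 68 libraries, 14 and 1 in the lymphocyte-poor ones, and 5 and 8 on the log2(TPM + 1) scale. Acadvl, which starts the oxidation of very long chains in mitochondria, had female medians of 260.1 and 155 CPM and male medians of 253 and 163 CPM (log2 fold change -0.81 ± 0.15, adjusted p = 8.95e-06). The peroxisomal enzyme gene Ehhadh differed by -0.80 ± 0.16. Cpt1a, the carnitine palmitoyltransferase, was the 1 gene of the list that was higher (0.41 ± 0.08).

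Breakdown of branched-chain amino acids, a pathway active in adipocytes, depended on the libraries used. Of its 19 genes 4 were lower and 0 higher over the 68 libraries, where 31.1% of all genes were lower and 24.8% higher. In females 4 were higher and 0 lower, and in males 0 were higher and 6 lower. Further, 17 were lower and 0 higher in the lymphocyte-poor libraries, and 13 were higher and 0 lower on the log2(TPM + 1) scale. Bcat2, the first enzyme, had male medians of 108.8 and 78.96 CPM and differed by -0.49 ± 0.12, by -0.97 in the lymphocyte-poor libraries. Ivd gave -0.38 and Bckdha -0.28, with -0.97 and -0.61 in the lymphocyte-poor libraries.

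Thermogenic genes gave 9 lower and 1 higher of 14, with a median log2 fold change of -1.26, and 6 and 1 in the lymphocyte-poor libraries, with a median of -0.67. Ucp1 was at 0.278 to 1901 CPM (median 57.2) in the low-Mest group and 0.0586 to 490.3 CPM (median 4.31) in the high-Mest group in females. Among males the level was 2.85 to 1597 CPM (median 27.4) in the low-Mest group and 0.422 to 132.5 CPM (median 5.88) in the high-Mest group. The ranges overlapped widely, and the change of -2.88 ± 0.72 (adjusted p = 0.000586) was -0.75 (adjusted p = 0.612) in the lymphocyte-poor libraries. Ppargc1a, a coactivator that drives mitochondrial biogenesis, had narrower ranges, with female medians of 9.999 and 7.002 CPM and male medians of 13.4 and 7.28 CPM (log2 fold change -0.76 ± 0.13, adjusted p = 1.88e-06), and gave -1.17 in the lymphocyte-poor libraries. Cidea, a lipid droplet protein of brown fat, and Pank1, a pantothenate kinase, differed by -1.96 ± 0.36 and -1.45 ± 0.25, and both were called in the lymphocyte-poor libraries (-1.25 and -0.79).

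Genes of the extracellular matrix were mostly higher with high Mest. Of 38 genes of collagens, other matrix proteins and their modifying enzymes, 31 were higher and 0 lower (24.8% of all genes were higher), with a median log2 fold change of 0.76 and a range of 0.16 to 1.5. Among the lymphocyte-poor libraries 15 were higher and 0 lower, with a median of 0.49, and between the groups 20 were higher and 0 lower. The basement membrane collagen gene Col4a2 was at 226 to 927 CPM (median 451) in the low-Mest group and 886 to 2477 CPM (median 1425) in the high-Mest group in females. Male libraries held 453 to 1497 CPM (median 801) in the low-Mest group and 679 to 3199 CPM (median 1972) in the high-Mest group. In 29 of 34 high-Mest libraries Col4a2 exceeded every low-Mest library of its sex (log2 fold change 1.36 ± 0.14, adjusted p = 1.48e-11). Its partner Col4a1 differed by 1.18 ± 0.13, and Lox, which cross-links collagen, by 1.47 ± 0.16. The 38 genes summed to 4884 to 18839 CPM in females of the low-Mest group and 14297 to 34848 CPM in females of the high-Mest group.

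The 8 genes of caveolae included Cav1 and Cavin1, and 7 of 8 were higher and 0 lower, with a median of 0.81. Among the lymphocyte-poor libraries 2 of 8 were higher, with a median of 0.25. Cav2 differed by 0.87 ± 0.14, and by 0.29 in the lymphocyte-poor libraries (adjusted p = 0.0601).

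The Wnt pathway, which restrains adipocyte formation and which Sfrp5 inhibits outside the cell, was split. Of 41 genes tested 16 were higher and 11 lower (24.8% and 31.1% of all genes were), with a median of -0.07. In the lymphocyte-poor libraries 5 were higher and 1 lower (9.39% and 11.3% of all genes were). On the log2(TPM + 1) scale the median was 0.22, with 18 higher and 5 lower. Log2 fold changes in the list ran from -2.43 to 2.49. The 3 called genes of smallest p were receptor genes, all higher, and none of the 11 lower is named here. Fzd4 had female medians of 257 and 688 CPM and male medians of 555 and 869 CPM (log2 fold change 0.97 ± 0.14, adjusted p = 9.35e-08). Fzd5 differed by 0.66 ± 0.11, and Lgr4, the receptor for R-spondins that strengthens Wnt signals, by 0.95 ± 0.11. These 3 receptor genes were higher in the lymphocyte-poor libraries as well (0.45, 0.58 and 0.65). Of 14 genes of the growth hormone and IGF axis 6 were higher and 2 lower. The growth hormone receptor Ghr differed by 0.68 ± 0.12 and Igf1 by 0.60 ± 0.11, and in the lymphocyte-poor libraries neither was called (0.26 and 0.26, adjusted p = 0.101 and 0.0975). Stat5b, a transcription factor below that receptor, differed by -0.19 ± 0.04, with 0.03 on the log2(TPM + 1) scale.

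Of 10 glucocorticoid response genes 4 were higher and 1 lower. Tsc22d3 (GILZ) had female medians of 69.01 and 94.1 CPM and male medians of 79.3 and 129.6 CPM (log2 fold change 0.82 ± 0.16, adjusted p = 1.56e-05), Sgk1 differed by 0.40 ± 0.11 and the metallothionein gene Mt2 by 1.17 ± 0.34. Without the male BXH6/TyJ library the value of Mt2 was 0.62 (adjusted p = 0.0549). Of 15 clock genes 2 were higher and 3 lower (24.8% and 31.1% of all genes were), and 5 higher and 0 lower on the log2(TPM + 1) scale. Clock differed by 0.48 ± 0.07, Cry2 by 0.27 ± 0.10 and Dbp by -0.63 ± 0.24, and the time of collection of each mouse is not in the labels. Of 14 interferon response genes 1 was higher and 4 lower (24.8% and 31.1% of all genes were). In the lymphocyte-poor libraries 0 were called by edgeR's quasi-likelihood test. Mx1 differed by -0.90 ± 0.25, and Rsad2 was higher by 0.48 ± 0.15.

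Markers of the cell types that the tissue can hold were counted the same way. All 14 lymphocyte markers were lower, with log2 fold changes of -2.51 to -2.12. In females alone 14 were called, in males alone 0 by edgeR's quasi-likelihood test, with a male median of -1.43. Cd3e was at 1.15 to 189.7 CPM (median 47.6) in the low-Mest group and 1.17 to 29.97 CPM (median 2.02) in the high-Mest group in females. The male range was 0.703 to 119.3 CPM (median 38.01) in the low-Mest group and 0.607 to 94.7 CPM (median 2.07) in the high-Mest group. Cd4 and Cd3d differed by -2.40 and -2.12. All 9 mammary epithelium markers were lower over both sexes and 0 were called in females alone by edgeR's quasi-likelihood test. Epcam differed by -1.70 ± 0.43, Csn3 by -2.05 ± 0.53 and Wfdc18 by -1.70 ± 0.46, and in males Epcam was at 0.116 to 64.5 CPM (median 2.58) in the low-Mest group and 0.0346 to 6.34 CPM (median 0.253) in the high-Mest group. With the mammary, lymphocyte and muscle marker levels as terms, Csn3 gave 0.15, but Csn3 is itself 1 of the 9 markers that make the mammary term.

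Of 16 macrophage markers 9 were higher and 2 lower over both sexes, with a median of 0.65. In the lymphocyte-poor libraries 1 was higher, with a median of 0.52. The 16 summed to low-Mest and high-Mest medians of 1105 and 1002 CPM in females and of 1099 and 1936 CPM in males. The macrophage markers named next are among those higher. Mmp12, a macrophage elastase, was at 2.37 to 17.1 CPM (median 5.53) in the low-Mest group and 5.70 to 190.1 CPM (median 31.02) in the high-Mest group in females. Among males the level was 2.75 to 704 CPM (median 14.3) in the low-Mest group and 32.3 to 516 CPM (median 165) in the high-Mest group (log2 fold change 2.37 ± 0.41, adjusted p = 3.27e-06). Without the male KK/HlJ library of the low-Mest group its log2 fold change was 3.11. Lgals3 differed by 1.27 ± 0.23, and Cd163, a marker of resident macrophages, by 0.81 ± 0.18 and by 0.67 in the lymphocyte-poor libraries. All 8 endothelial markers were higher, with a median of 0.55, and 2 of 8 in the lymphocyte-poor libraries, with a median of 0.28. Cdh5 had female medians of 185 and 324 CPM and male medians of 280.4 and 479 CPM (log2 fold change 0.78 ± 0.13, adjusted p = 1.86e-06), and Erg and Tie1 gave 0.64 and 0.65.

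Of the 5 adipocyte markers 4 were higher over both sexes, 5 in females and 0 in males, and in the lymphocyte-poor libraries 0 were higher and 1 lower. Adiponectin (Adipoq) had female medians of 1079 and 1853 CPM and male medians of 1576 and 2045 CPM (log2 fold change 0.32 ± 0.13, adjusted p = 0.0314), and in the lymphocyte-poor libraries -0.15 (adjusted p = 0.385). Cidec differed by 0.79 ± 0.16. Of 10 progenitor markers 3 were higher and 3 lower, near the shares of all genes (24.8% and 31.1%). On the log2(TPM + 1) scale 4 were higher and 0 lower. Pdgfrb (0.62) and Cd34 (0.60) lay above 0 and Icam1 (-0.68) below. Of 6 smooth muscle markers Acta2 was higher (0.98 ± 0.17), and Des (-0.44 ± 0.11) and Cnn1 (-0.72 ± 0.28) were lower. Cnn1 was no longer called without the male AXB19b/PgnJ library (-0.49, adjusted p = 0.0903). Of 6 Schwann cell markers 2 were lower, among them Mbp (-0.28 ± 0.10). Of 5 erythrocyte markers 3 were higher, Hba-a1 (0.77 ± 0.19), Hbb-bs (0.56) and Alas2 (0.54), of which Hba-a1 may share reads with its copy Hba-a2. Of 10 skeletal muscle markers 3 were higher. Acta1 differed by 1.46 ± 0.55, while Myh2 (1.75 ± 0.59) and Myh1 (1.37 ± 0.60) rested on the female I/LnJ library, without which they were 0.33 and 0.39 (adjusted p = 0.486 and 0.521).

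Proliferation genes were called in the lymphocyte-poor libraries and not over all 68, a difference that was not tested. Over the 68 libraries 0 of 16 were called by edgeR's quasi-likelihood test, with a median of -0.06 and 2 of them (Cdk1 and Bub1b) at an unadjusted p under 0.05. In the 36 lymphocyte-poor libraries 15 of 16 were higher (9.39% of all genes were), with a median of 1.08. With the marker levels as terms in all 68 libraries 0 of 16 were called, with a median of 0.38. Mki67 and Top2a, taken as examples after their values were seen, gave -0.01 and -0.20 over all libraries and 1.47 (adjusted p = 0.0018) and 1.32 (adjusted p = 0.00109) in the lymphocyte-poor ones. The subset was chosen after seeing the data and holds 10 low-Mest libraries.

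**Figure D4:**
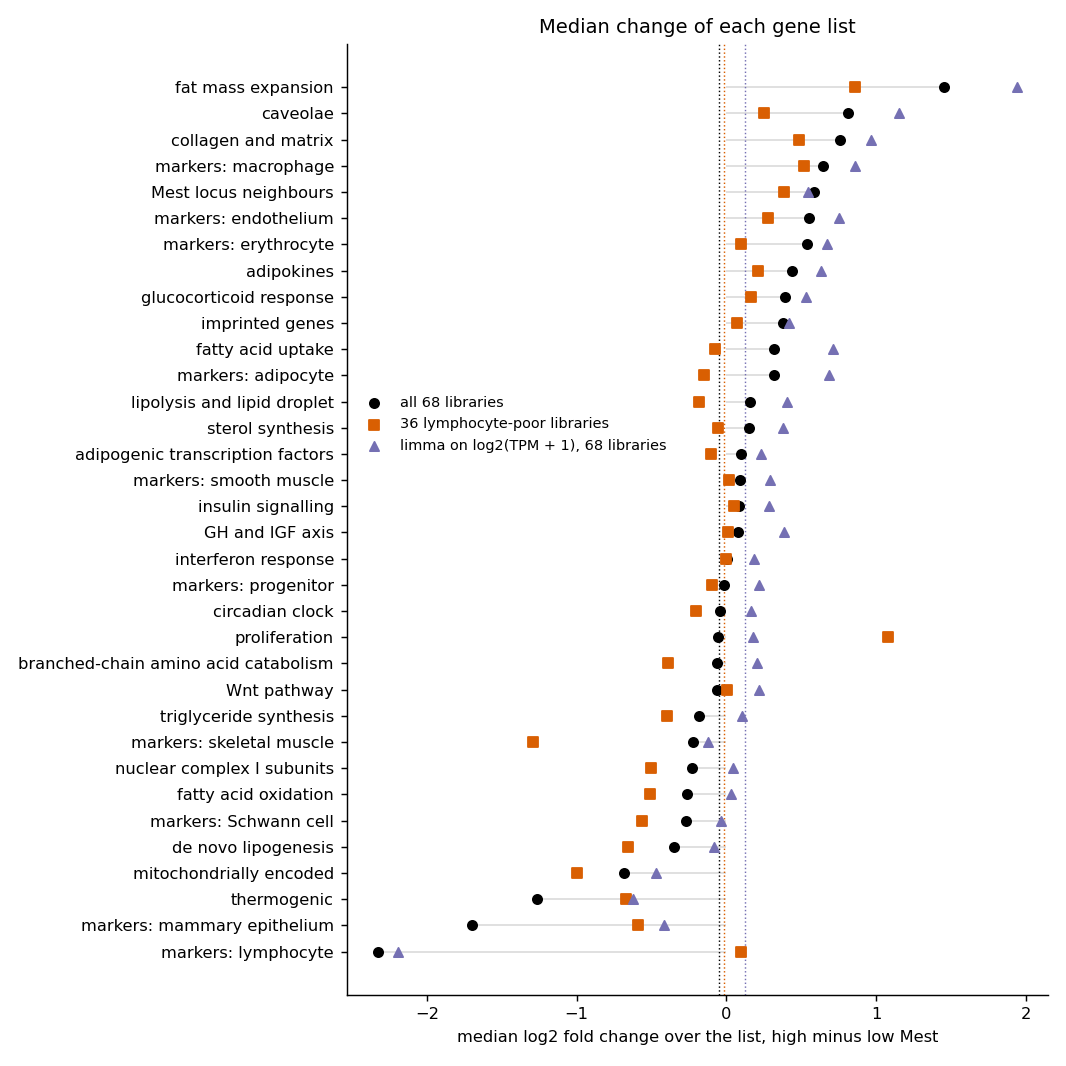
Median log2 fold change (high minus low Mest) of each gene list other than the liver genes over all 68 libraries (black circles), in the 36 libraries under 100 CPM of lymphocyte markers (orange squares) and by limma on log2(TPM + 1) (purple triangles), with dotted lines at the medians of all genes tested. Collagen and matrix genes lie to the right (0.76, 0.49 and 0.96) and mitochondrially encoded genes to the left (-0.69, -1.0 and -0.47) in all 3.

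The 2 sexes were compared by the interaction of sex and group. For 63 of 17568 genes (0.359%) the change differed between the sexes at an adjusted p under 0.05, with the male minus female difference below 0 in 57 and above 0 in 6. The 57 included the epithelial genes Krt5, Krt14, Cldn4, Foxa1 and Wnt7b, named after their values were seen. Without the male PL/J library, which carried the mammary markers, 37 genes differed (30 below and 7 above 0), and none of these 5 was called. The difference of Krt5 went from -5.90 to -3.61 (adjusted p = 0.0713), and that of Foxa1 from -4.38 to -2.67 (adjusted p = 0.147). Without the deepest library, the male CXB11/HiAJ, 92 below and 12 above 0 did, and in the lymphocyte-poor libraries 0 did by edgeR's quasi-likelihood test, with 1067 at an unadjusted p under 0.05. Of the named genes, Sfrp5, Prelp, Gm4912 and Gm13340 were among the 63. In the lymphocyte-poor libraries, which are fewer, their differences were -3.26, -1.27, -3.91 and -0.03, against -3.17, -1.43, -3.04 and -4.02 over all 68, so that the first 3 lost the call at differences of a like size. Prelp was higher by 2.44 in females and 0.99 in males, a difference of -1.43 ± 0.29 (adjusted p = 0.00922). The contrast in Mest itself was 48.6-fold between medians in females and 9.14-fold in males.

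**Figure D5:**
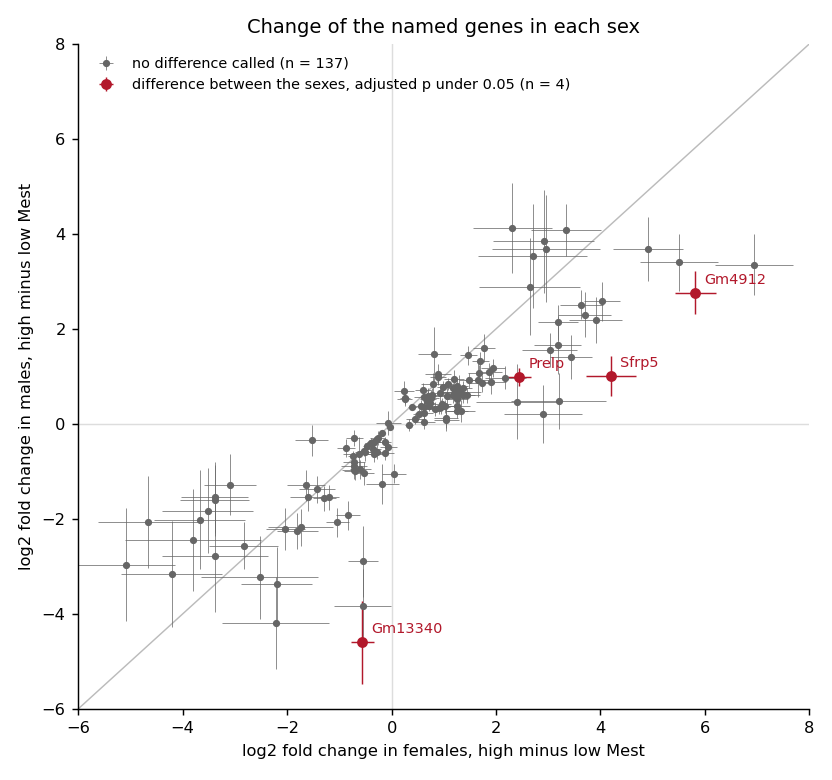
Log2 fold change (high minus low Mest) of the named genes in females (horizontal) and in males (vertical), with standard errors and the line of equal change. Many of these genes were named from those with 1 sign in both sexes. Sfrp5, Prelp, Gm4912 and Gm13340 (red) differed between the sexes at an adjusted p under 0.05.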

How the data were processed

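RNA-seq libraries (KAPA mRNA HyperPrep) were stranded and paired-end, per the study's methods, which do not name the kit. The authors quantified them with kallisto 0.46.1 (submitters' processing notes) against Ensembl release 97 (GRCm38) and summarised them per gene with tximport. They deposited estimated counts, of which 30.29% of values are not whole, and TPM for the same genes. The strand option is not given in the sources used here, so antisense or overlapping genes may share reads, as may pseudogenes and near-identical copies. Of 36558 gene IDs, 35935 matched a symbol in GENCODE M21.

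Mest TPM ranked the libraries within each sex, and the highest and lowest 1 in 4 of each sex were compared. Ranking by CPM kept 65 of 68 libraries in their group. Counts were rounded, filtered with filterByExpr, scaled by TMM and tested with edgeR 4.0.16 (quasi-likelihood test, sex as a term, Benjamini-Hochberg adjustment, threshold 0.05, R 4.3.3). Errors of log2 fold changes are standard errors, and every adjusted p of a gene is from that test. Each sex alone, the interaction, the 70 libraries between the groups (slope on log2 TPM of Mest) and the other sex of each strain were fitted likewise. Alternatives used limma 3.58.1 on log2(TPM + 1) and log2(TPM + 0.1), DESeq2 1.42.0, other filters, scalings, terms and subsets of libraries. Tables and figures used Python 3.11.15, matplotlib 3.10.9, scipy 1.17.1, pandas 2.3.3 and numpy 2.4.6. Total estimated counts of the ranked libraries ran from 11747373 to 78562648 (median 30278548), where 3 counts equal 0.0994 CPM at the median. Such floors cover counting error only.

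From genes with a symbol, an adjusted p under 0.05, 5 CPM or more on average and 1 sign in both sexes, the named genes were the 12 with the largest fold and the 5 with the smallest p in each direction. All genes of the fat mass and locus lists were added, with up to 3 called genes of smallest p from each other list, and the 10 highest and 5 lowest Spearman coefficients with Mest (log2(TPM + 1), mean of at least 1 TPM). The results of some genes that this rule names are not reported here. The members and lists were chosen with earlier results of these data known, and the liver genes after their values were seen. The subsets without lymphocyte-marker, liver-gene, mammary-marker or single libraries were chosen after seeing the data. Labels do not say more of the mice than strain and sex, so p-values measure the spread between these libraries. The test was checked on simulated counts for the main contrast (17432 genes tested). There 69 of 100 genes changed by 0.5 and 86 of 99 changed by 1 on the log2 scale were called, with 11 unchanged genes called. Only 199 genes were changed and each gene was drawn apart, without strain or cell content. The check therefore does not cover a contrast as broad as this one, with 4355 genes called higher and 5459 lower.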

Additional observations from a re-analysis of the deposited data

Results flagged for a closer look

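The change with Mest differed between females and males in 63 genes by the interaction of sex and Mest group (edgeR's quasi-likelihood test, adjusted p under 0.05). Of the named genes, the male minus female difference in log2 fold change was -3.17 for Sfrp5, -3.04 for Gm4912, -1.43 for Prelp and -4.02 for Gm13340. For Gm13340 the difference was -0.29 (adjusted p = 0.636) without the male NZB/BlNJ library.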

How the results depend on the processing

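Over 143 named genes and 27 other settings, 3487 of 3822 values kept their direction and side of the threshold, 277 lost the call, 11 gained it and 47 changed sign, with every change of sign in 26 genes. The cause of these changes was not tested. Genes higher and lower numbered 7237 and 1693 by limma on log2(TPM + 1), 7308 and 1613 on log2(TPM + 0.1), 2443 and 3024 without BXD strains, 2761 and 2848 with the adipocyte marker level as a term, 1809 and 1882 with the mammary, lymphocyte and muscle marker levels as terms, and 1677 and 2022 without libraries that held 100 CPM or more of lymphocyte markers. The male minus female difference was called below 0 in 30 genes without the male with mammary markers and in 92 without the deepest library (12 above 0), and in 0 genes either way without libraries that held lymphocyte markers (edgeR's quasi-likelihood test, 1067 genes at an unadjusted p under 0.05), where the differences were -3.26 for Sfrp5, -3.91 for Gm4912 and -1.27 for Prelp. The correlation of Mest between the sexes was 0.273 within BXD strains.

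Log2 fold changes that changed sign were as follows. By limma on log2(TPM + 1) they were Stat5b 0.031, Ivd 0.014, Bckdha 0.011, Mkln1 0.24 and Tsga13 0.049, and on log2(TPM + 0.1) 0.035, 0.015, 0.011, 0.24 and 0.097. Without libraries with lymphocyte markers they were Icam1 0.055, Cd3e 0.083, Cd4 0.52, Ighg3 0.10, Ighg2c 1.62, Glycam1 0.32, Mx1 0.34, Cry2 -0.11 and Adipoq -0.15. With the 3 marker levels as terms they were Cd4 0.20, Csn3 0.15, Ighg2c 0.079, Dsc3 0.34, Glycam1 0.55, Mx1 0.11 and Tsga13 0.24. Without libraries with liver genes they were Bhmt -0.49, Fga -0.97, Pzp -1.24, Gc -1.36, Ahsg -1.21 and Tsga13 0.030. With the adipocyte marker level they were Cry2 -0.039, Adipoq -0.13 and Tsga13 0.067, and with the mitochondrially encoded share Ndufs8 0.027, Agpat3 0.068, Bckdha 0.16 and Mkln1 0.0022. In BXD strains only they were Myh2 -0.26, Dbp 0.13 and Myh1 -0.89. Tsga13 was also 0.18 without BXD strains, 0.0046 along continuous Mest, 0.043 ranked by CPM, 0.022 with groups of 1 in 3 and 0.029 with strain as a random block. Cd3e, Cd4, Csn3 and Adipoq are themselves among the markers that set the lymphocyte, mammary or adipocyte settings named here. Libraries with liver genes were likewise left out by the level of such genes. The changes of sign of these genes were therefore fixed in part by the setting.

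The main contrast was not paired. The replicate numbers are those of single mice, so that no number links libraries. Strain links some of them, since 14 strains have both sexes among the 68 libraries, and with strain as a random block 4552 genes were higher and 5045 lower. Depth limits the low genes, since 3 counts equal 0.0994 CPM at the median total.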
